A study of Tupaia belangeri with 15 samples.

Results

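LINC-FRMD8-1 is a long intergenic noncoding feature of the tree shrew (TS) annotation. It was chosen because it held more unique molecular identifiers (UMIs, tags that count single captured RNA molecules) than any other feature in every library, and it is 1 of the 83605 features that each matrix lists. Single nuclei of 15 retinas of Tupaia belangeri had been profiled with a 10x Genomics 3′ assay, 5 retinas each from infant, mature and senile TS. No treatment is named for any group, and the dissected retinas had been frozen before nuclei were released. Infant TS were in the second or the third month of life, mature TS in the third year and senile TS in the eighth year. The senile TS came from another institute than the infant and mature TS, so stage and source cannot be told apart in any comparison with the senile retinas. Nothing in the labels ties a retina to a named animal, and p-values measure the spread between these libraries.

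Long noncoding RNAs are transcripts that encode no protein, and several of them stay in the nucleus after transcription. The best known are MALAT1, which gathers in nuclear speckles beside splicing factors, and NEAT1, the scaffold of paraspeckles. Both belong to the most abundant RNAs of mammalian nuclei, and in the human genome their genes lie close to FRMD8. The symbols of LINC features in the TS matrices contain that of a coding gene, and how they were assigned is not given in the sources used here. Of 14 known nuclear long noncoding RNAs searched by symbol, including MALAT1 and NEAT1, 0 were listed. The identifier of LINC-FRMD8-1 is its symbol, with no position, so whether it corresponds to either human gene cannot be told from these data.

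The libraries held 4269 to 9856 barcodes, of which 119765 of 120437 in all passed the limits on genes and mitochondrial UMIs given in the methods. Median depth was 1461 to 5589 UMIs per nucleus. File headers name Cell Ranger 6.1.2 for 7 libraries (Infancy 1 to 3, Mature 1 and 2, Senile 1 and 2) and 7.0.1 for the other 8. Between any 2 libraries 4 to 30 barcodes were shared. Senile 3 stood apart from the other senile retinas in shares of summed UMIs, as described with the results it touches. Gene levels in bulk sums cannot separate fewer cells of a type from less RNA per cell, which applies to all whole-retina values here.

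UMIs of LINC-FRMD8-1 were counted in every barcode. Over all deposited barcodes it held 76480024 of 467736966 UMIs, or 16.4%, and 0 of 120437 barcodes lacked it, which allows a share of up to 0.00249% (counting error only). This limit concerns barcodes without a UMI and not nuclei that lack the RNA, since free RNA can add UMIs to a droplet and its level in empty droplets was not measured here. The lowest number in any barcode was 2 UMIs, and the median nucleus held 427 UMIs, 15.1% of its total. In infant retinas 1 to 5 the feature took 18.1%, 19.7%, 19.8%, 16.3% and 16.7% of the UMIs of kept nuclei. In the mature retinas it took 15.9%, 21.2%, 14.4%, 18.5% and 14.0%, and in the senile retinas 12.1%, 14.9%, 19.1%, 12.6% and 14.4%. Mature 2 was the highest and Senile 1 the lowest of the 15, and the ranges of the 3 stages overlapped. These shares chose the feature and are given as a description.

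No other feature came near it. The second feature of a library was NRXN3, a presynaptic neurexin, in 11 retinas and KCNB2, a voltage-gated potassium channel, or CRYBB2, a crystallin, in 2 retinas each. These second features took 0.437% to 0.960% of UMIs, so that LINC-FRMD8-1 stood 14.3-fold (Senile 4) to 43.6-fold (Senile 3) above them. Between 54 (Senile 4) and 253 (Senile 3) of the next features had to be added up to match it. The files hold no feature lengths, and the shares are of molecules counted with a 3′ assay and were not adjusted for length. Because the feature is part of the total, normalised counts of any other gene rise by a factor of 1.14 (Senile 1) to 1.27 (Mature 2) when it is left out of the total. All 31775 other LINC features together took 2.65% to 3.42% of UMIs. Among them LINC-PLIN3-8 and LINC-PTPRC-4 led with 0.107% each on average.

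**Figure D1:**
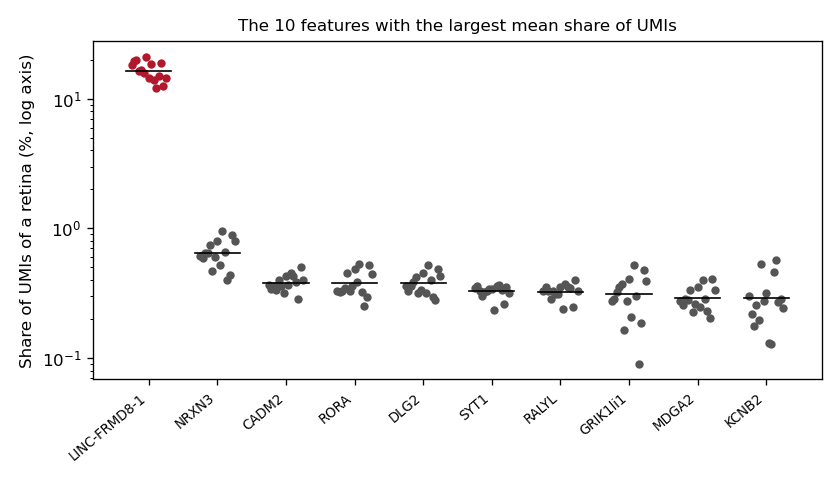
Share of UMIs of each of the 15 retinas (log axis, in percent) for the 10 features with the largest mean share; points are retinas and lines are means. LINC-FRMD8-1 lies between 12.1% and 21.2%, and the next feature on average, NRXN3, between 0.402% and 0.960%.

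The other features with FRMD8 in their symbol had few UMIs. FRMD8 itself, a FERM-domain protein that stabilises the iRhom and ADAM17 sheddase complex, had 2673 UMIs in all kept nuclei against 73010352 of LINC-FRMD8-1. UMIs of FRMD8 were found in 1.02% to 4.89% of the nuclei of a retina. LINC-FRMD8-3, FRMD8-AS-1 and FRMD8-AS-2 averaged 0.604%, 0.791% and 0.229% of nuclei, and LINC-FRMD8-2 had UMIs in 0.000880%. Antisense features share sequence with their partner, and strand use in the counting is not given in the sources used here. Of 16 other coding genes near FRMD8 in the human genome, 15 were listed and 11 had UMIs, and none averaged 20 UMIs per 1000000.

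As a share of all UMIs, LINC-FRMD8-1 was the most even between nuclei among the 10 largest features in 11 of the 15 retinas. CADM2 (a synaptic adhesion molecule) was so in the other 4 (Infancy 3 and Senile 1 to 3). So large a feature varies less against a total that contains it. Evenness against other UMIs was not computed, so this ranking is not on equal terms. The variation of LINC-FRMD8-1 beyond counting noise, as a coefficient of variation of its share, averaged 0.370 over retinas (0.289 to 0.553). CADM2 stood at 0.414 (0.347 to 0.484), SYT1 (a synaptic calcium sensor) at 0.473, NRXN3 at 0.835 and GRIK1li1 (a kainate receptor copy) at 2.34. Nuclei still differed far more than counting allows. The standard deviation of the share between nuclei of a retina was 5.83 to 9.03 times that of binomial sampling. The middle 90% of nuclei spanned 4.88% to 20.2% in Senile 1 and 6.91% to 33.5% in Infancy 3. Below a share of 3% were 368 nuclei (0.307%), and above 40% were 321 nuclei (0.268%), of which 122 came from Infancy 3 and 122 from Senile 3. Among named classes, RGCs and astrocytes had the largest proportions above 40%, with 1.01% and 1.09% of their nuclei.

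The next question was whether cell classes differ in their share. Nuclei were placed in 9 classes by marker genes, which did not include LINC-FRMD8-1, and the class names below mean nuclei like that class by these markers. In this way 69292 nuclei (57.9%) were placed, while 21526 lay within 0.1 of the required lead of the best class. Of the nuclei also named by clustering, 94.4% had the same class. This was lowest in rods (75.5%), astrocytes (77.7%) and horizontal cells (78.5%) and highest in amacrine cells (98.6%). Of the listed class markers 6 had no UMI in any library. All classes had more of their own markers than of any other class among their 10 leading genes. The gate used these markers, so this count does not test the class names. Markers of BCs were also present in the RGC gate (median of 17.5 UMIs per 10000 other UMIs, against 18.6 of RGC markers) and in the HC gate (8.16 against 14.5). AC markers were at 3.16 in the HC gate, and Müller markers at 3.37 in the BC gate, where BC markers were at 108. Müller markers were at 16.3 in the astrocyte gate, where astrocyte markers were at 45.5, and in the rod gate BC markers were at 4.94 and cone markers at 3.32, where rod markers were at 137. Pigment epithelium markers had a UMI in 38.02% of nuclei in the rod gate, with a median of 0. The part of such admixture in the shares below was not tested.

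Bipolar cells (BCs), which relay signals from photoreceptors to ganglion cells, had the lowest mean share when UMIs were summed by class. In infant retinas 1 to 5 BCs had 14.0%, 15.9%, 13.1%, 12.1% and 12.6%, in mature retinas 11.6%, 15.4%, 10.3%, 13.7% and 11.0%, and in senile retinas 9.08%, 11.2%, 13.4%, 10.1% and 11.0%. Cones, the photoreceptors of day vision that dominate the TS retina, had 19.4%, 21.7%, 23.5%, 19.6% and 19.3% in infant retinas. They had 16.4%, 22.8%, 18.0%, 20.2% and 18.1% in mature and 13.2%, 15.0%, 18.3%, 15.9% and 16.4% in senile retinas. In each of the 15 retinas cones lay above the BCs of the same retina. The mean difference of the log2 ratio of LINC-FRMD8-1 to other UMIs was 0.70 (SD 0.16, n = 15; exact sign-flip permutation test, 2-sided, p = 6.10e-05, the smallest that 15 retinas allow; adjusted p = 0.000129 over 36 class pairs). In UMIs, the median BC nucleus held 276.7 ± 144 and the median cone nucleus 961.5 ± 540 (mean ± SD over retinas), beside 2121 and 3972 UMIs of other features.

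The order of the classes by mean share was astrocytes (19.7% ± 4.11), retinal ganglion cells (RGCs, the output neurons, 18.9% ± 3.60), cones (18.5% ± 2.88), horizontal cells (HCs, 18.2% ± 2.78), amacrine cells (ACs, 16.4% ± 2.80), Müller cells (16.3% ± 2.70), rods (16.0% ± 3.38), microglia (13.8% ± 2.95) and BCs (12.3% ± 1.94), each as mean ± SD over 15 retinas. Of 36 class pairs, 28 differed at an adjusted p of 0.05. BCs were below each of the other 8 classes and were last in 12 retinas, and microglia, the resident immune cells, were last in the other 3. Neighbours in this order from astrocytes down to HCs did not differ beyond their spread, with adjusted p from 0.126 to 0.580, but with classes from clustering astrocytes exceeded RGCs (log2 difference 0.13, adjusted p = 0.0245). Neither did ACs and Müller cells (log2 difference 0.01, SD 0.14, adjusted p = 0.718) nor Müller cells and rods (0.05, SD 0.19, adjusted p = 0.402). The step from HCs to ACs was present in 15 of 15 retinas (log2 difference 0.19, SD 0.14, adjusted p = 0.000129). Rods exceeded microglia in 13 of 15 (0.24, SD 0.26, adjusted p = 0.00566), and microglia exceeded BCs in 12 of 15 (0.18, SD 0.22, adjusted p = 0.00773). In nuclei of 1000 to 4000 other UMIs microglia and BCs no longer differed (0.09, adjusted p = 0.328), nor with classes from clustering (0.02, adjusted p = 0.733). The median nucleus over all retinas had the reverse order, with 10.6% in microglia and 11.9% in BCs.

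**Figure D2:**
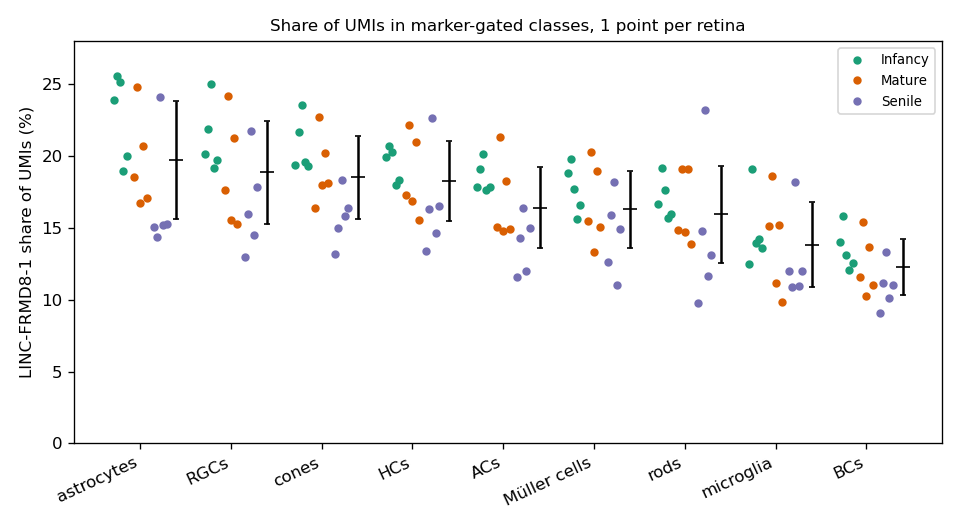
Share of UMIs taken by LINC-FRMD8-1 (percent) in 9 marker-gated classes; each point is 1 retina, coloured by stage, and black bars give the mean ± SD over 15 retinas. BCs, at 9.08% to 15.9%, lie below the other neurons of their own retina, and astrocytes reach 25.6%.

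Most class differences were also present within a limited range of depth, inside which classes were not matched. With nuclei limited to 1000 to 4000 other UMIs, BCs stood at 12.01% ± 1.78 and cones at 19.1% ± 3.52, and 27 of 36 pairs differed, 26 of them also called over all nuclei. RGCs, whose median nucleus had 5353 other UMIs, stood at 18.9% ± 5.23 within these limits (14 retinas). ACs were below RGCs over all nuclei (log2 difference -0.24, exact sign-flip permutation, adjusted p = 0.000129). Within these limits that difference was -0.19 and did not pass (adjusted p = 0.0604). Single nuclei of the classes overlapped, since the middle 90% of BC nuclei lay between 5.96% and 19.9% and of cone nuclei between 8.16% and 30.2%.

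Within a retina, the relation to depth was followed over 10 bins with equal numbers of nuclei. A slope of 1 between log2 LINC-FRMD8-1 UMIs and log2 UMIs of other features means a constant share. The mean slope was 1.09 ± 0.11 (SD, n = 15), and it exceeded 1 in 11 retinas (exact sign-flip permutation test of slope minus 1, 2-sided, p = 0.00696). The libraries of the 2 Cell Ranger versions differed in this slope. It was 1.01 ± 0.08 in the 7 libraries of version 6.1.2, from 0.90 (Senile 2) to 1.11 (Infancy 3), and 1.16 ± 0.08 in the 8 of version 7.0.1, from 1.06 (Infancy 5) to 1.25 (Senile 3). Within stages the difference averaged 0.15 (exact permutation test within stage, p = 0.008). In Infancy 4, of version 7.0.1, the share was 10.7% in the shallowest bin and 17.6% in the deepest. In Infancy 1, of version 6.1.2, it was 20.1% in the shallowest and 17.2% in the deepest bin. Labels and headers give no batch other than this version, and version and any unlabelled batch cannot be told apart. Depth also differed, with medians of 1461 (Senile 2) to 3064 (Mature 1) UMIs per nucleus in libraries of 6.1.2. In libraries of 7.0.1 they were 2267 (Senile 4) to 5589 (Mature 5), and the part of library depth in the slopes was not tested.

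**Figure D3:**
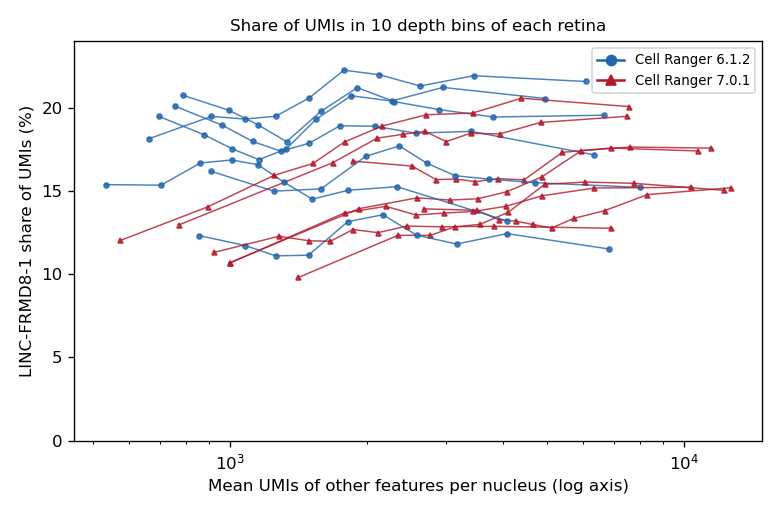
Share of UMIs taken by LINC-FRMD8-1 (percent) against mean UMIs of other features per nucleus (log axis) in 10 depth bins of each retina; each line is 1 retina and colour gives the Cell Ranger version in the file header. Lines of version 7.0.1 start between 9.80% and 16.8% in the shallowest bin and those of 6.1.2 between 12.3% and 20.7%.

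Inside classes the mean slopes of most classes were near or above 1 in one version and below 1 in the other. In libraries of 7.0.1 the mean slope was above 1 in 8 of 9 classes (1.00 to 1.40) and 0.95 in astrocytes, and in libraries of 6.1.2 it was below 1 in 8 of 9 (0.58 to 0.94) and 1.18 in microglia. Averaged over the classes of a retina, it was 1.06 ± 0.09 in the 8 libraries of 7.0.1, above 1 in 5 and not beyond the spread (exact sign-flip permutation, p = 0.117), and 0.85 ± 0.07 in the 7 of 6.1.2, below 1 in each of them (exact p = 0.0156, the smallest that 7 retinas allow). Over both versions the average was 0.04 below 1 (exact p = 0.300). Cones had 0.81 ± 0.25 over 15 retinas and astrocytes 0.82 ± 0.20 over 13, both below 1 (adjusted p = 0.0392 over 9 classes for each; exact sign-flip permutation). Microglia had 1.30 ± 0.21 over 11 retinas, above 1 in 9 of them (adjusted p = 0.0352). In the other 6 classes the adjusted p was 0.0814 to 0.858. Cones showed the widest gap between versions, with 0.58 ± 0.07 in 7 libraries of 6.1.2 and 1.00 ± 0.17 in 8 libraries of 7.0.1 (difference within stage 0.41, exact permutation, adjusted p = 0.0045), and the 2 sets did not overlap. The same direction passed in ACs (0.13, adjusted p = 0.0045), astrocytes (0.30, adjusted p = 0.0125), RGCs (0.23, adjusted p = 0.0225), HCs (0.17) and Müller cells (0.17, both adjusted p = 0.0435). It did not in rods, BCs and microglia, where the differences were 0.07, 0.08 and 0.24.

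**Figure D4:**
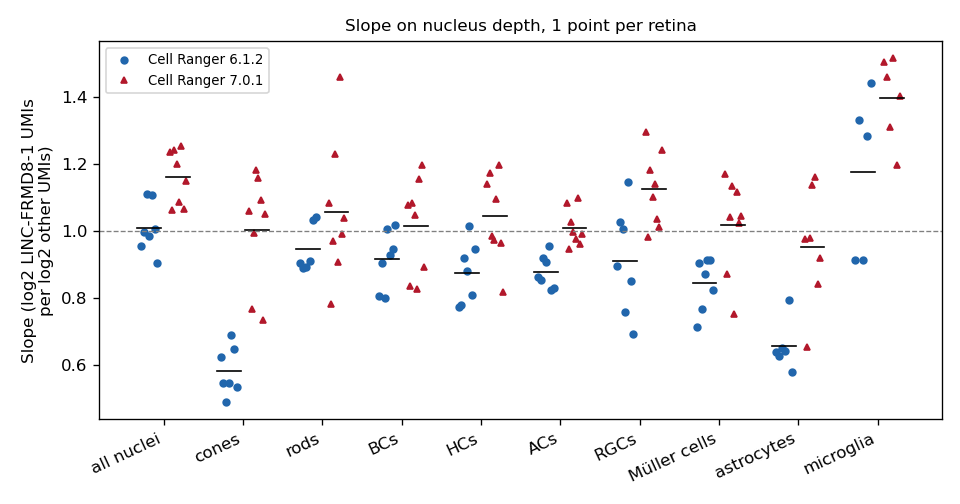
Slope of log2 LINC-FRMD8-1 UMIs on log2 UMIs of other features, over all nuclei and within classes with at least 50 nuclei; each point is 1 retina, lines are means by Cell Ranger version, and the dashed line at 1 marks a constant share. Cones of version 6.1.2 lie between 0.49 and 0.69, below all those of 7.0.1.

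The whole share did not differ between versions beyond its spread. It was 17.4% on average in the libraries of 6.1.2 and 15.7% in those of 7.0.1, and within stages the difference of 7.0.1 minus 6.1.2 was -1.27 points (exact permutation within stage, p = 0.373). It was -0.79 points with equal weight to each class and ran from -2.16 (without Mature 1) to -0.38 points (without Mature 2) over single retinas left out. Infant libraries of 7.0.1, at 16.3% and 16.7%, were below the 3 of 6.1.2, at 18.1% to 19.8%. The mature means were 15.6% in 7.0.1 and 18.5% in 6.1.2, with overlapping libraries, and the senile means were 15.4% in 7.0.1 and 13.5% in 6.1.2. The senile order rested on Senile 3, at 19.1%. Senile 4 and 5, also of 7.0.1, had 12.6% and 14.4%, beside 12.1% and 14.9% in Senile 1 and 2.

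The stages were compared next. The mean share was 18.1% ± 1.66 in infant, 16.8% ± 3.04 in mature and 14.6% ± 2.76 in senile retinas (SD, n = 5 each). The share in senile minus that in infant retinas was -3.50 points, with 4 of 5 senile retinas below every infant retina, but this did not pass the correction (2-sided exact permutation test, p = 0.0476, adjusted p = 0.143 over 3 stage pairs). The smallest possible p is 0.00794. The exception was Senile 3, at 19.1% of its summed UMIs. With this retina left out the share of senile retinas minus that of infant retinas was -4.61 points (p = 0.00794 by exact permutation, adjusted p = 0.0238). Leaving out the only exception fixes this p at its smallest possible value, so it is no further support. By median share per nucleus Senile 3 was much closer, at 15.3% beside 14.9% in Senile 2 and 11.5% to 13.1% in Senile 1, 4 and 5. By this median, senile minus infant with all retinas was -3.44 points (exact permutation, p = 0.0317, adjusted p = 0.0952). Mature minus infant was -1.34 points (p = 0.373, exact) and senile minus mature -2.16 points (p = 0.262, exact), neither beyond the spread. Over single retinas left out the first ran from -2.44 (without Mature 2) to -0.64 points (without Mature 5) and the second from -3.28 (without Senile 3) to -1.06 points (without Mature 2), and neither passed. With equal weight to each class senile minus infant was -3.67 points (adjusted p = 0.143, exact permutation), and with permutation within Cell Ranger version -3.41 points (adjusted p = 0.240).

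**Figure D5:**
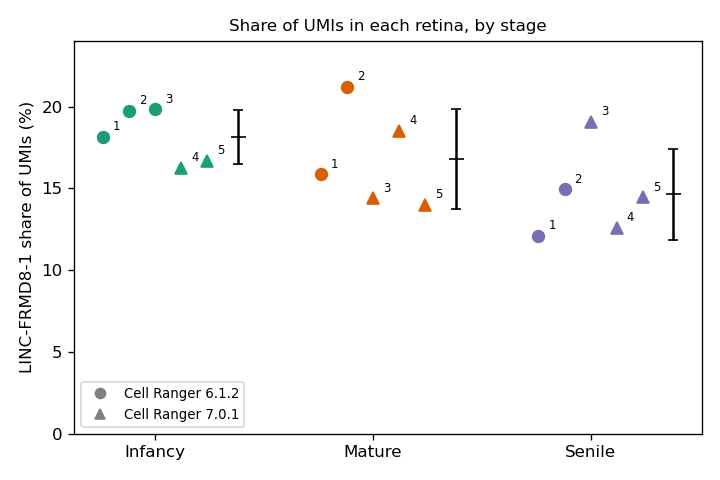
Share of UMIs taken by LINC-FRMD8-1 (percent) in each retina by stage; numbers are replicates, symbols give the Cell Ranger version and black bars the mean ± SD of 5 retinas. Senile 3, at 19.1% of its summed UMIs, lies apart from the other senile retinas, which span 12.1% to 14.9%. Its median share per nucleus, not drawn here, was 15.3%, beside 14.9% in Senile 2.

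In a fit of the summed UMIs of all features (edgeR quasi-likelihood test), LINC-FRMD8-1 was not among the called features of any stage pair. Its log2 fold change was -0.13 (SE 0.16, adjusted p = 0.848) in mature against infant, -0.42 (SE 0.16, unadjusted p = 0.0180, adjusted p = 0.516) in senile against infant and -0.29 (SE 0.16, adjusted p = 0.876) in senile against mature retinas. Over single retinas left out the first ran from -0.26 (without Mature 2) to -0.06 (without Mature 5) and the last from -0.39 (without Senile 3) to -0.16 (without Mature 2). The change in senile against infant retinas ran from -0.52 to -0.36 and was never called (edgeR, adjusted p = 0.238 to 0.872). Of 28977 features tested, 0.459% were called in mature against infant retinas, 0.411% as higher and 0.0483% as lower. In senile against infant retinas 0.977% were called, 0.901% as higher and 0.0759% as lower. In senile against mature retinas edgeR called 0%, DESeq2 called 18 features, and 1637 passed an unadjusted p of 0.05 in edgeR. These comparisons share their groups. The other LINC features tested numbered 5327, of which 36 were higher and 4 lower in mature against infant retinas and 84 higher and 4 lower in senile against infant retinas. None of the 4 other FRMD8 features tested, nor of the 8 nearby genes and 23 speckle or paraspeckle proteins tested, was called in any pair. In senile against infant retinas the median log2 fold change was -0.26 for the FRMD8 features, 0.06 for the nearby genes and -0.06 for the speckle list, beside -0.02 over all features tested. In mature against infant retinas these medians were 0.24, 0.24 and 0.06, beside -0.03, and in senile against mature retinas -0.42, -0.07 and -0.14, beside 0.03.

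Within classes, all 9 had a lower mean log2 ratio in senile than in infant retinas, by 0.24 (microglia) to 0.56 (astrocytes), but 0 of 27 class and stage-pair tests passed the correction (exact permutation, smallest adjusted p = 0.107), while 6 passed unadjusted. A call here needed at least 5 tests to reach small p together, since the smallest possible p is 0.00794. The 9 classes of a retina share its library and are not independent. Cones and ACs, the inhibitory interneurons of the inner retina, were the 2 classes in which all 5 senile retinas lay below all 5 infant retinas. Between 1000 and 4000 other UMIs only ACs kept this, with 4 of 5 senile retinas below in cones, and with classes from clustering it held in 6 classes (rods with 4 senile retinas). Cones had 20.7% ± 1.85 in infant, 19.1% ± 2.46 in mature and 15.7% ± 1.87 in senile retinas. The senile cones were 0.49 lower on the log2 scale than infant cones (exact p = 0.00794, adjusted p = 0.107). ACs had 17.8%, 19.1%, 20.1%, 17.6% and 17.8% in infant, 15.1%, 21.4%, 14.8%, 18.3% and 14.9% in mature, and 11.6%, 14.3%, 16.4%, 12.01% and 15.0% in senile retinas. Senile ACs were 0.51 lower than infant ACs (exact p = 0.00794, adjusted p = 0.107).

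These calls hinged on Senile 3 and on how nuclei were named. Without Senile 3, 9 of 27 tests passed, namely senile against infant retinas in all classes but Müller cells (adjusted p = 0.0306, and 0.0476 in microglia) and senile against mature retinas in cones (adjusted p = 0.0476). With classes from clustering 7 of 27 passed, 6 of them senile against infant (cones, rods, HCs, ACs, RGCs and astrocytes, each with an adjusted p of 0.0306) and the other senile against mature in rods (adjusted p = 0.0306). Both rod tests rest on 4 senile retinas there, since Senile 1 had fewer than 10 rods. By marker gate Senile 3 was the highest senile retina in every class. Leaving it out takes away the highest senile value of each class, so the calls without it are no further support. In Senile 3 astrocytes stood at 24.1%, where the other senile retinas had 14.4% to 15.2%, and rods at 23.2%, where they had 9.75% to 14.8%. With classes from clustering its astrocytes stood at 18.7%, against 15.8% to 17.1%, and its rods at 14.8%, on 20 nuclei, against 11.8% to 13.0% in 3 others, so that the size of this gap depended on how nuclei were named. In the same library 2.30% of nuclei had a share above 40%, and ribosomal protein genes took 1.16% of UMIs against 0.441% to 0.967% in the other 14. The part of these features in its share was not tested. Differences of the stage effect between classes could hardly be tested. Of 108 tests of a class pair in a stage pair, 0 passed the correction and 5 passed unadjusted (exact permutation, smallest unadjusted p = 0.0159, adjusted p = 0.857), but with a smallest possible p of 0.00794 a call needed at least 18 tests to reach small p together.

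Mitochondrial RNA, which marks cytoplasm carried along with nuclei, took 0.0178% to 0.276% of UMIs. It stood at 0.286% in the 368 nuclei with a LINC-FRMD8-1 share below 3% and at 0.0412% in the 321 above 40%. These nuclei come from the libraries in unlike proportions, and this difference was not tested. Between 1000 and 4000 other UMIs, nuclei with a mitochondrial UMI had a share 0.26 points higher than nuclei without one (SD 1.66, n = 12 retinas with at least 50 nuclei of both kinds, higher in 6 of 12, exact sign-flip permutation p = 0.694). Senile 3 had the largest difference, with 21.0% against 16.3%, and without it the mean of the other 11 retinas was -0.15 points (SD 0.92, exact p = 0.612). No class lacked the feature that could have served as a background.

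Features with a like pattern were sought over the sums of 9 classes in 15 retinas (135 points centred on each retina, 7919 features of at least 20 UMIs per 1000000 other UMIs). The points share libraries, and the correlations are a description. Among the 5 highest were TNRC6A, a scaffold of microRNA silencing, with r = 0.75, GAMT, an enzyme of creatine synthesis, with 0.71, PDE8B, a cyclic AMP phosphodiesterase, with 0.70, and DOP1B with 0.69. The median over all features was 0.06. TNRC6A averaged 365.1 ± 22.4 UMIs per 1000000 other UMIs in cones, 495.1 ± 115 in astrocytes and 259.4 ± 27.5 in BCs.

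The opposite pattern was led by EML6, a microtubule-associated protein, with r = -0.77, NXN, a redox enzyme, with -0.75, GTF2I, a transcription factor, with -0.71, ATF7IP, a chromatin cofactor, with -0.71, and CD2APli1 with -0.71. EML6 averaged 805.4 ± 116 UMIs per 1000000 other UMIs in microglia, 552.1 ± 70.1 in BCs, 371.4 ± 38.3 in cones and 249.2 ± 43.8 in astrocytes. Of 26 speckle and paraspeckle proteins 25 were listed and 19 reached the limit, with a median r of 0.062, beside 0.057 over all features. SRRM2, a core speckle protein, had 0.32, PSPC1, a paraspeckle protein, -0.38, and CLK4, a kinase of splicing factors, -0.66. Over the 15 whole retinas, centred on Cell Ranger version, the ends of 7772 features were PPME1, CRELD2, L1RE1li23, YIPF2 and SLC39A13 (r = 0.87 to 0.83) and ASXL2, DDX10li1, MINDY3, PPP2R5A and GPATCH8 (-0.92 to -0.87). The median size of r there was 0.31, and these ends are picked from many features with no test.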

How the data were processed

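The authors deposited raw UMI counts per feature and called barcode for each retina, made with Cell Ranger and the TS_3.0 genome, with no normalization. File headers name versions 6.1.2 and 7.0.1, the submitters' processing notes 5.0.1 and 7.0.1. Intron counting is not given in the sources used here. Kept barcodes had over 200 and below 6000 detected genes and a mitochondrial share below 5%. Doublets stayed in the main sums, and 8285 nuclei scored highest by Scrublet (8 per 1000 for every 1000 nuclei) were left out as an alternative. Nuclei were gated by marker scores (mean score and lead over the second class above 0.25, at least 2 markers). For clustering, 2000 variable genes without LINC-FRMD8-1, 30 components, 20 neighbours and Leiden resolution 2 were used. Classes entered from 10 nuclei. Shares were compared by exact permutation of retinas and summed counts by edgeR 4.0.16 (TMM, filterByExpr, stage), with DESeq2 1.42.0 as an alternative, in R 4.3.3 and Python 3.11.15 with scanpy 1.11.5; the edgeR script was tested on simulated data. Adjustment was by Benjamini-Hochberg. Depth per library was 13429873 to 58734300 UMIs. Stage and replicate come from the labels. The feature, its lists and tests were chosen with earlier results of these data known, and tests of slopes by class and version, of class by stage differences and of mitochondrial UMIs were added after seeing the data. Named features are those with FRMD8 in the symbol, the 10 largest by share, the 5 highest and 5 lowest by correlation, and list examples, of which 1 is not reported here. CRYBB2, LINC-PLIN3-8 and LINC-PTPRC-4 were named after their values were seen.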

Additional observations from a re-analysis of the deposited data

Results flagged for a closer look

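Of 33 groups of 5 retinas examined for a retina far from the others, 3 stood out, where chance gives about 1 in 20. These were microglia of Infancy 2, at 19.1% where the other infant retinas had 12.5% to 14.2%, astrocytes of Senile 3, at 24.1%, and microglia of Senile 3, at 18.2% where the other senile retinas had 10.9% to 12.04%. They rested on 67, 72 and 43 nuclei placed by marker gate. With classes from clustering the same values were 14.8%, 18.7% and 11.98%, where the other retinas of the stage had 10.0% to 14.2%, 15.8% to 17.1% and 10.3% to 11.3%. The slope on depth differed between libraries of the 2 Cell Ranger versions within stages by 0.15 (exact permutation, p = 0.008). In the 672 barcodes outside the limits, of which 631 had 6000 or more genes, LINC-FRMD8-1 took 15.9% of UMIs.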

How the results depend on the processing

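Of 243 recomputed values for 14 results, 229 kept their direction and their side of the threshold, or stayed within 1.5 times of a count. Many could hardly change side, since the main stage tests did not pass and exact tests with the replicate block cannot. The count is therefore no measure of robustness. The senile minus infant difference in share ranged from -4.61 to -2.86 points over single retinas left out. It passed only without Senile 3, the only senile retina not below every infant retina. Class tests of stage went from 0 of 27 to 7 with classes from clustering, and ranged from 0 to 9 over single retinas left out, with 9 without Senile 3. The slope minus 1 of 0.09 turned to -0.036 as the mean of slopes within classes (exact p = 0.300). Called features in mature against infant retinas numbered 133, and 288 with Cell Ranger version as a term, 222 with sex as a term (marked only in the study's sample overview, not checked against the RNA here and in doubt), 446 with DESeq2 and 66 (without Infancy 4) to 140 over single retinas left out, with 85 without Infancy 5 and 76 without Mature 1. In senile against infant retinas they were 283, and 474 with version as a term and 579 with DESeq2, and in senile against mature retinas 0, and 18 with DESeq2. The difference between nuclei with and without a mitochondrial UMI ran from -0.147 (without Senile 3, where it turned) to 0.467 points over single retinas left out, an alternative chosen after seeing the data. The cause was not tested. Whether replicate numbers pair the retinas cannot be told. The correlation of deviations was -0.45 to 0.64 over 15 same-numbered pairs, 13 over 0.1, and the best match had the own number in 8 of 30. Replicates 1 and 2 are all of version 6.1.2 and replicates 4 and 5 all of 7.0.1. Number and version therefore cannot be told apart in these retinas. With the replicate block, the senile minus infant difference of -3.50 points had an exact p of 0.0625, the smallest that 5 pairs allow, and edgeR gave a log2 fold change of -0.41 (adjusted p = 0.450) and 340 called features. The block changed no call of LINC-FRMD8-1. Rod, astrocyte and microglia values rest on as few as 19, 29 and 17 nuclei of a retina.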
